A study of Mus musculus with 10 samples.

Results

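The subject of the report is the stretch of mouse chromosome 12 that holds Rad51b and its neighbour Zfp36l1, and the open chromatin peaks that lie there. A peak was counted as a member if its midpoint lay inside the annotated bounds of either gene, or lay outside protein-coding genes with 1 of the pair as the nearest such gene within 50 kb. This gave 88 peaks out of 122984 in the whole table, 80 at Rad51b and 8 at Zfp36l1. The locus was picked because many of its peaks were lower after forskolin in these libraries, so its members were selected on the values of forskolin against control. These are given below as a description, without a test.

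The assay was ATAC-seq, which reads open chromatin as the places where a transposase can insert sequencing adapters. Adipocytes were differentiated from MAP cells, a mouse line of immortalized fat cell progenitors, and nuclei sorted on a DNA dye went into the libraries. The groups of 2 libraries each were rosiglitazone for 3 days (S9 and S10) and, along the forskolin course, vehicle control (S1 and S2), forskolin for 4 hours (S3 and S4), for 1 day (S5 and S6) and for 3 days (S7 and S8). Forskolin switches on adenylyl cyclase and so raises cAMP, and rosiglitazone activates the nuclear receptor PPARγ. The study used both to induce browning, a shift of fat cells towards heat production. Treatment began at day 7 to 8, once the cells were differentiated. Every group, control included, had earlier received insulin, 500 µM isobutylmethylxanthine, 1 µM dexamethasone and 1 µM rosiglitazone during differentiation, so the rosiglitazone group was exposed to that drug a second time. The doses of the browning treatments are not given in the sources used here, and all values come from a single cell line.

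Rad51b encodes a protein that works with RAD51C, RAD51D and XRCC2 in the repair of broken DNA by homologous recombination. Zfp36l1 encodes a zinc finger protein that binds AU-rich elements in messenger RNAs and brings the CCR4-NOT deadenylase to them, which leads to their decay. Long introns and gene deserts such as those of this locus often hold enhancers of genes other than the one they lie in. A peak is assigned here by position alone, and which gene it acts on was not measured.

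The 250 bases before each annotated start are shown because a member peak lies over the start of each gene. The peak covers part of this stretch at Rad51b and all of it at Zfp36l1. The sequences are RefSeq's for build GRCm38.p6, each read 5′ to 3′ on the strand of its gene, and the capitals mark matches to the motifs searched. The Rad51b stretch is chr12:79297032-79297281 on the plus strand, and the Zfp36l1 stretch is chr12:80113014-80113263 on the minus strand.
Rad51b promoter: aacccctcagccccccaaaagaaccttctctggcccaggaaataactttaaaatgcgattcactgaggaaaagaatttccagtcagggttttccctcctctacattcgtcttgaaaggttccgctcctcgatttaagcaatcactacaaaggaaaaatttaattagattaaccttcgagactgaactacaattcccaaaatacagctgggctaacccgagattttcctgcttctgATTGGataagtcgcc
Zfp36l1 promoter: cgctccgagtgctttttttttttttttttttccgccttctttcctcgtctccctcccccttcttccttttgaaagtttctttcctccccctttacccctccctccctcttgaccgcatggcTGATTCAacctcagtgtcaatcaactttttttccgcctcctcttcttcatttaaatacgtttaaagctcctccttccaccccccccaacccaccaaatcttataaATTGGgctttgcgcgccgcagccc

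The motifs searched on both strands were the cAMP response element core site TGACG, the AP-1 site TGANTCA, the nuclear receptor core site AGGTCA and the CCAAT box. In Rad51b the capitals are a CCAAT box read on the opposite strand, 15 to 11 bases before the start. In Zfp36l1 they are an AP-1 site 129 to 123 bases before the start and a CCAAT box on the opposite strand at 24 to 20 bases. No match overlapped another. Among 32851 promoters of the same length, 33.8% held CCAAT, 6.75% TGANTCA, 17.8% TGACG and 14.0% AGGTCA. A match is a run of letters and not a site shown to be bound.

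Library totals lay between 10410233 and 18935287 counts, with the control library S1 the lowest and S6, at 1 day of forskolin, the highest. The labels do not say if both libraries of a group had their own culture, so p-values measure only the spread between these libraries. The adipocyte markers (7 genes, all with peaks) summed to 1100 to 1106 CPM with rosiglitazone and, along the forskolin course, to 878 to 961 CPM in control, 821 to 889 CPM at 4 hours, 764 to 768 CPM at 1 day and 802 to 832 CPM at 3 days. Of these genes, Fabp4 and Cidec were called higher than control with rosiglitazone and Cebpa lower. At 4 hours Fabp4 was called higher and Lpl and Cebpa lower. At 1 day 0 of the 7 were higher and 5 lower (Adipoq, Plin1, Pparg, Lpl and Cebpa). At 3 days 0 were higher and 3 lower (Plin1, Lpl and Cebpa). Between the drugs at 3 days 0 were higher with forskolin and 4 lower (Fabp4, Plin1, Cidec and Lpl). The macrophage markers summed to 67.7 to 68.4 CPM with rosiglitazone, 54.3 to 54.4 CPM in control, 74.4 to 77.7 CPM at 4 hours, 61.3 to 62.5 CPM at 1 day and 64.6 to 65.0 CPM at 3 days. The endothelial markers summed to 107 to 114 CPM with rosiglitazone, 117 to 124 CPM in control, 140 to 150 CPM at 4 hours, 121 to 130 CPM at 1 day and 125 to 130 CPM at 3 days, with Cdh5 and Kdr, 2 of the 4 genes, called higher at 4 hours. At 1 day Cdh5 and Kdr were called higher and Pecam1 lower, and at 3 days Cdh5 higher. Between the drugs at 3 days Cdh5 and Kdr were higher with forskolin and Tek lower. The progenitor markers (5 genes, all with peaks) summed to 264 to 274 CPM with rosiglitazone and 281 to 287 CPM in control. Along the forskolin course they summed to 270 to 274 CPM at 4 hours, 269 to 291 CPM at 1 day and 265 to 274 CPM at 3 days. Among the listed markers of macrophages and muscle, Adgre1, Myod1 and Myf5 had no tested peak. Of the other macrophage markers, Csf1r and Cd68 were called higher than control at 4 hours and with rosiglitazone, and Csf1r at 1 and 3 days. Ptprc and Cd14 were not called against control. Between the drugs at 3 days Cd14 was higher with forskolin and Ptprc lower. Des, the other muscle marker, ran from 33.3 CPM at 4 hours to 40.3 CPM in control. In bulk libraries fewer cells of a type and less open chromatin per cell cannot be told apart, and the part of the marker shifts in the results below was not tested.

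Rad51b spans 79297282 to 79848260 on the plus strand (550979 bp, build mm10) and Zfp36l1 spans 80107760 to 80113013 on the minus strand (5254 bp), with 259499 bp between them. Peaks are named here by the distance of their midpoint from the Rad51b start. Of the members, 73 lay in the body of Rad51b and 7 past its end, none before its start, 1 in the body of Zfp36l1 and 7 near it. Most members were weak: the median of their mean levels over all libraries was 2.18 CPM (counts scaled to a common library size), and the range ran from 0.252 to 36.3 CPM. The +0.0-kb peak (79297058 to 79297571) covers the Rad51b start, and the +815.9-kb peak (80112764 to 80113638) covers the Zfp36l1 start and the first bases of the neighbouring gene model Gm52006. The peaks past the end of Rad51b, which include the strong +567.6-kb peak (79864277 to 79865490), fall in or near the long noncoding RNA models Gm36132, Gm46361 and Gm46362.

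The filter on low counts kept 85 members, 77 at Rad51b and 8 at Zfp36l1, and removed the +263.0-kb, +366.0-kb and +488.3-kb peaks. Between the genes lay 30 peaks that the 50-kb limit kept out. Just inside the limit, the +598.8-kb peak (47.9 kb from the Rad51b end) had a log2 fold change of −0.50 at 4 hours of forskolin, and the first peak outside, 56.2 kb away, had 1.93. On the Zfp36l1 side, the +766.8-kb peak (43.7 kb away) had 0.20 and the next one outside, 60.9 kb away, had 1.33. Of the 30 peaks between the genes, 7 were called higher and 7 lower at 4 hours, beside 18.5% and 12.9% of all tested peaks. The 1-day counts there were 5 higher and 9 lower, beside 12.9% and 9.84% of all tested peaks. The 3-day counts were 5 higher and 3 lower, beside 8.49% and 5.34%.

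After 4 hours of forskolin, 11 of the 85 members were called higher than control and 22 lower, where a call is an adjusted p below 0.05 in edgeR over all 118954 tested peaks. Over all tested peaks 18.5% were called higher and 12.9% lower. The 1-day counts were 6 higher and 18 lower, beside 12.9% and 9.84% of all peaks, and at 3 days 5 were higher and 12 lower, beside 8.49% and 5.34%. Because this contrast chose the locus, nothing is read from these shares. All but 1 of the lower calls at each of the first 2 times, and all of those at 3 days, lay at Rad51b. The median log2 fold change of the members was −0.11 at 4 hours, −0.13 at 1 day and −0.19 at 3 days, and that of all peaks was −0.004, 0.04 and 0.01.

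These counts leaned on single libraries. Calls over all peaks also fell when the libraries named here were left out, except that lower calls at 3 days rose without S8. Without S3, 14 members were called lower at 4 hours, and without S2, 7 were called higher. At 1 day the lower calls numbered 10 without S5, and the higher calls 3 without S1 and 2 without S2. At 3 days the lower calls numbered 5 without S1, 5 without S2 and 6 without S8. The higher calls at 3 days numbered 3 without S1, S2, S5 or S6 and 1 without S7. DESeq2 called 6 higher and 14 lower at 4 hours, 3 higher and 12 lower at 1 day, and 1 higher and 4 lower at 3 days. With library size alone as the scaling, the median log2 fold change of all peaks moved to 0.10, 0.19 and 0.11. The members called were then 12 higher and 17 lower, 8 and 12, and 6 and 8. Over all peaks the calls with library size alone were 24698 higher and 11131 lower, 20340 and 6468, and 12658 and 4082. Leaving out each library in turn, 9 of the 22 lower members at 4 hours kept their call every time, as did 5 of 18 at 1 day and 3 of 12 at 3 days.

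**Figure D1:**
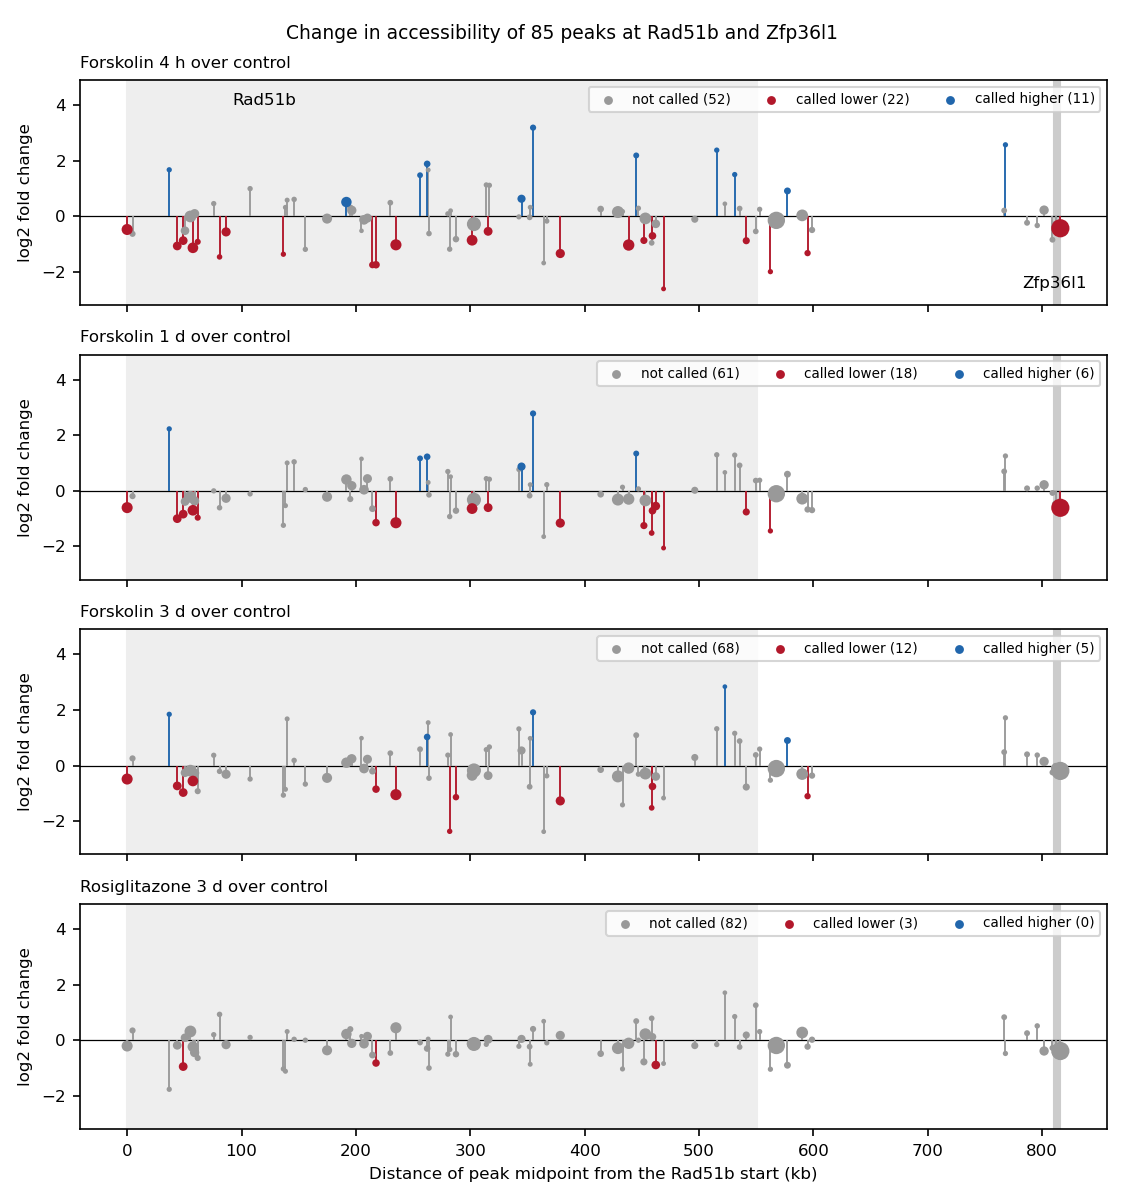
Each panel plots the log2 fold change over control (vertical axis) of the 85 tested members against the distance of the peak midpoint from the Rad51b start in kb (horizontal axis). Point area grows with the mean level, colour gives the call, and the shaded bands are the bounds of Rad51b and Zfp36l1. Lower calls (22, 18 and 12 with forskolin, 3 with rosiglitazone) are at 4 hours most frequent in the first 100 kb of Rad51b (7 of 13), number 1 or 0 of 10 between 100 and 200 kb in each panel, and include the Zfp36l1 start at 4 hours and 1 day. The lead of the first 100 kb leaned on calls that ended without single libraries and with DESeq2.

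Following each member through the course, 26 were called lower at 1 or more forskolin times and 12 higher, none both ways, and 47 were never called. Of the 26, 8 were lower at all 3 times, 8 at 4 hours and 1 day, 5 at 4 hours only, 1 at 4 hours and 3 days, 1 at 1 and 3 days, 1 at 1 day only and 2 at 3 days only. Of the 12, 3 were higher at all 3 times, 3 at 4 hours and 1 day, 4 at 4 hours only, 1 at 4 hours and 3 days and 1 at 3 days only.

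The +235.0-kb peak (chromosome 12, 79531629 to 79532916, in the body of Rad51b) was, at 1288 bp, the widest of the 26. It had 22.6 and 21.7 CPM with rosiglitazone and, along the forskolin course, 17.0 and 15.6 CPM in control, 9.27 and 6.64 CPM at 4 hours, 7.94 and 6.72 CPM at 1 day and 8.14 and 7.52 CPM at 3 days. All 6 forskolin libraries lay below both controls and both rosiglitazone libraries lay above them. The log2 fold changes over control were −1.04 (SE 0.17), −1.15 (SE 0.17) and −1.05 (SE 0.17) at the 3 times, and the calls held without each library in turn.

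The +378.7-kb peak (79675490 to 79676570) was likewise lower at all forskolin times. Its levels were 13.1 and 12.9 CPM with rosiglitazone, 11.8 and 11.3 CPM in control, 4.54 and 4.53 CPM at 4 hours, 4.64 and 5.65 CPM at 1 day and 5.13 and 4.35 CPM at 3 days. All 6 forskolin libraries lay far below all 4 others. Its log2 fold changes over control were −1.35 (SE 0.21), −1.16 (SE 0.20) and −1.27 (SE 0.21), again called without each library in turn.

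Nearer to the promoter, the +43.8-kb peak (79340558 to 79341668), outside the naming rule and chosen after its values were seen, had 7.78 and 9.63 CPM with rosiglitazone, 10.7 and 9.17 CPM in control, 4.73 and 4.65 CPM at 4 hours, 4.02 and 5.81 CPM at 1 day and 5.54 and 6.41 CPM at 3 days. The forskolin libraries lay below control at every time, with log2 fold changes of −1.08, −1.004 and −0.73, and the rosiglitazone libraries overlapped control. Its 3-day call ended without S1 or S7. A weaker pair stood side by side, the +458.6-kb (79755703 to 79755981) and +459.3-kb (79756423 to 79756705) peaks. The first had 3.72 and 4.01 CPM with rosiglitazone, 2.42 and 2.06 CPM in control, 1.58 and 0.724 CPM at 4 hours, 0.838 and 0.713 CPM at 1 day and 0.885 and 0.633 CPM at 3 days. It stood above control with rosiglitazone and below control in every forskolin library, and was called lower at 1 and 3 days. The 1-day call ended without S1 or S6 and the 3-day call without S1, S2, S7 or S8. The second, at +459.3 kb, was called lower at all 3 forskolin times. Its call ended without S1, S3 or S4 at 4 hours and without S1 or S5 at 1 day. At 3 days it ended without S1, S2, S7 or S8. DESeq2 called it at none of these times (adjusted p = 0.070, 0.070 and 0.099).

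**Figure D2:**
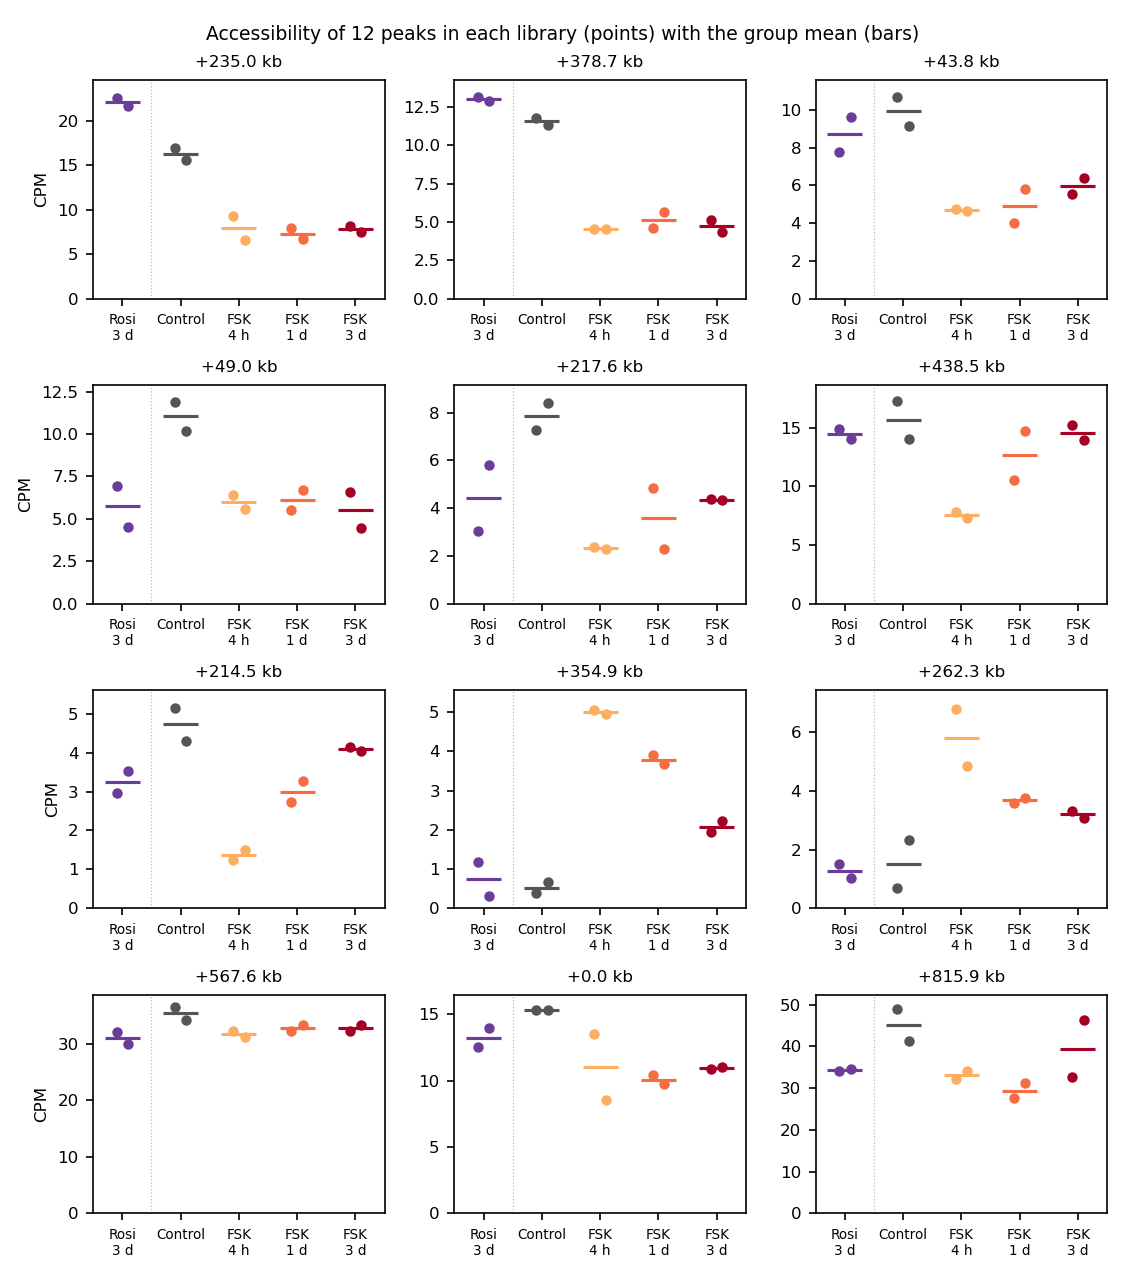
Points are the CPM of 12 members in each library (vertical axis, from 0), bars are means of 2 libraries, and the horizontal axis runs from rosiglitazone through control to 4 hours, 1 day and 3 days of forskolin. The +235.0-kb, +378.7-kb and +43.8-kb peaks sit lower in all 6 forskolin libraries, the +438.5-kb and +214.5-kb peaks are lowest at 4 hours, the +354.9-kb and +262.3-kb peaks stand up at 4 hours, and the +567.6-kb peak stays between 29.9 and 36.5 CPM.

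Other members were low at 4 hours and nearer to control later. The +438.5-kb peak (79735277 to 79736207), chosen after its values were seen, had 14.9 and 14.0 CPM with rosiglitazone, 17.3 and 14.0 CPM in control, 7.82 and 7.31 CPM at 4 hours, 10.6 and 14.7 CPM at 1 day and 15.2 and 13.9 CPM at 3 days. Both 4-hour libraries lay below all others. For the +214.5-kb peak (79511522 to 79512040) the values were 2.96 and 3.52 CPM with rosiglitazone, 5.15 and 4.29 CPM in control, 1.25 and 1.51 CPM at 4 hours, 2.74 and 3.26 CPM at 1 day and 4.13 and 4.04 CPM at 3 days. Its level thus climbed at each step after 4 hours, although the 3-day libraries still lay below both controls.

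In all, 5 of the 22 members lower at 4 hours were called higher at 3 days than at 4 hours (+57.5, +214.5, +217.6, +301.6 and +438.5 kb), of which +57.5 and +301.6 kb were likewise picked once their values were known. The log2 difference between those times was 0.95 (SE 0.17) at +438.5 kb, 1.56 (SE 0.32) at +214.5 kb, 0.90 (SE 0.30) at +217.6 kb, 0.58 (SE 0.18) at +57.5 kb and 0.51 (SE 0.17) at +301.6 kb. These peaks were singled out by their low 4-hour libraries, which enter this difference too, so it is a description. Only at +438.5 and +214.5 kb did the call hold without each library in turn. Over all 85 members, 6 were higher and 5 lower at 3 days than at 4 hours, beside 4.38% and 6.75% of all peaks, and the total of 11 became 3 without S3, 6 without S4 and 4 without S8 or with DESeq2. Between 1 day and 4 hours the calls were 2 higher and 1 lower, beside 2.58% and 2.99%, in all 3, which became 1 without S3, S4 or S5 and 0 without S6. Between 3 days and 1 day edgeR called 0 members, beside 0.109% higher and 0.0773% lower of all peaks; 6 members had an unadjusted p below 0.05, DESeq2 called 0, and 2 were called without S7.

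Weaker members were lower at single times or on few reads. The +451.8-kb peak (79748903 to 79749189) had 2.89 and 3.95 CPM with rosiglitazone, 4.95 and 6.77 CPM in control, 3.02 and 3.38 CPM at 4 hours, 2.12 and 2.80 CPM at 1 day and 5.07 and 4.27 CPM at 3 days, and was called lower at 4 hours and 1 day. Its 3-day libraries were back beside the lower control, and the calls ended without S2 or S3 at 4 hours and without S2 at 1 day. The +469.0-kb peak (79766217 to 79766354) had 1.24 and 0.556 CPM with rosiglitazone, 1.72 and 1.49 CPM in control, 0.329 and 0.181 CPM at 4 hours, 0.559 and 0.204 CPM at 1 day and 0.767 and 0.633 CPM at 3 days. The +562.4-kb peak (79859657 to 79859796) had 1.24 and 0.864 CPM with rosiglitazone, 2.73 and 1.65 CPM in control, 0.526 and 0.543 CPM at 4 hours, 0.391 and 1.17 CPM at 1 day and 1.36 and 1.66 CPM at 3 days. Both were called lower at 4 hours and 1 day only. At +469.0 kb the calls ended without S4 at 4 hours and without S1, S2 or S6 at 1 day, and at +562.4 kb without S1 at 4 hours and without S1 or S5 at 1 day. The +287.5-kb peak (79584593 to 79584955), called lower at 3 days only, had 2.42 and 1.35 CPM at 3 days of forskolin and 3.13 and 5.29 CPM in control, and its call ended without S2 or S8.

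Members called higher were mostly weak in control. The +354.9-kb peak (79651964 to 79652448) had 1.17 and 0.309 CPM with rosiglitazone, 0.404 and 0.661 CPM in control, 5.06 and 4.95 CPM at 4 hours, 3.91 and 3.67 CPM at 1 day and 1.95 and 2.22 CPM at 3 days. All 6 forskolin libraries lay above all 4 others, the highest at 4 hours. Its log2 fold changes over control were 3.18 (SE 0.44), 2.78 (SE 0.45) and 1.91 (SE 0.49), with control resting on 4 and 8 counts. The call at 3 days ended without S1.

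At +262.3 kb (79559242 to 79559862), a peak chosen after its values were seen, the levels were 1.51 and 1.05 CPM with rosiglitazone, 0.707 and 2.31 CPM in control, 6.77 and 4.83 CPM at 4 hours, 3.58 and 3.77 CPM at 1 day and 3.30 and 3.09 CPM at 3 days. The forskolin libraries stood above the other 4 at every time, and most at 4 hours. The call held without each library at 4 hours, and ended without S1 at 1 day and without S1, S3, S4, S5, S6, S7 or S8 at 3 days. The +36.8-kb peak (79334004 to 79334199) had 0.275 and 0 CPM with rosiglitazone, 1.01 and 0 CPM in control, 0.920 and 2.05 CPM at 4 hours, 2.35 and 2.09 CPM at 1 day and 1.65 and 1.74 CPM at 3 days. Both untreated and rosiglitazone groups held a library with no count, so its fold changes rest on few reads (4 and 0 counts with rosiglitazone, 10 and 0 in control). Its calls against control ended without S2 at all 3 times, and also without S4, S5 or S6 at 4 hours and S5, S6, S7 or S8 at 3 days.

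The +522.6-kb peak (79819816 to 79820046), called higher at 3 days only, had 1.65 and 1.03 CPM at 3 days of forskolin and 0.202 and 0.165 CPM in control, the control values coming from 2 counts in each library, and its call ended without S1, S2 or S7. Past the end of Rad51b, the +577.3-kb peak (79874359 to 79874718) had 1.45 and 1.30 CPM with rosiglitazone, 3.03 and 2.15 CPM in control, 5.52 and 4.11 CPM at 4 hours, 4.41 and 3.36 CPM at 1 day and 5.31 and 4.19 CPM at 3 days. Rosiglitazone libraries were the lowest and forskolin libraries the highest. Its calls over control ended without S2 or S3 at 4 hours and without S2 or S7 at 3 days. Near Zfp36l1, the +767.9-kb peak (80065105 to 80065358) had 0.138 and 0.494 CPM with rosiglitazone, 0.404 and 0.496 CPM in control, 3.35 and 2.11 CPM at 4 hours, 1.06 and 1.12 CPM at 1 day and 2.42 and 0.475 CPM at 3 days. It was the only one of the 8 Zfp36l1 members called higher at 4 hours, and its 3-day libraries S7 and S8 were far apart.

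The members called lower at some forskolin time were wider and stronger than the rest. Their median width was 468 bp and their median mean level 4.59 CPM, against 347 bp and 1.86 CPM for the 59 others tested. The 12 members called higher had 383 bp and 1.98 CPM, against 358 bp and 2.40 CPM for the 73 others. These splits are made on the calls, which weak peaks reach less readily, so nothing is read from them. Of the 38 members at or above the median level of all peaks (2.72 CPM), 4 were called higher and 16 lower at 4 hours, and of the 47 below it 7 and 6. Among all peaks at or above the median level, 20.9% were called higher and 19% lower at 4 hours, and among those below it 16.1% and 6.88%, so lower calls came with level across the whole table. Spearman's rho was taken between the log2 of the mean CPM and the log2 fold change over the 85 members, which share all libraries and a depth. It was −0.23 at 4 hours, −0.35 at 1 day, −0.27 at 3 days and −0.03 with rosiglitazone. Over all peaks it was −0.10, −0.15, −0.12 and −0.12.

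Lower calls at 4 hours were most frequent in the first 100 kb from the Rad51b start. In steps of 100 kb from the Rad51b start, the lower calls at 4 hours were 7 of 13 tested members in the first step, then 1 of 10, 3 of 15, 3 of 13, 4 of 13 and 3 of 13. In the first step only the +43.8, +49.0 and +57.5-kb calls held without each library in turn and with DESeq2. The other lower calls of that step ended without single libraries and with DESeq2, so its lead leaned on them. The higher calls at 4 hours in the same steps were 1, 1, 2, 2, 1 and 3. The median log2 fold change at 4 hours was −0.57 in the first step, and 0.31, −0.14, −0.05, −0.11 and 0.02 in the next ones. In the first step it was −0.39 at 1 day, −0.27 at 3 days and −0.18 with rosiglitazone. The second step, from 100 to 200 kb, held 0 lower calls at 1 day, at 3 days and with rosiglitazone.

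The peaks over the starts of both genes were also among those called lower. The +0.0-kb peak of Rad51b had 12.5 and 14.0 CPM with rosiglitazone, 15.3 and 15.3 CPM in control, 13.5 and 8.51 CPM at 4 hours, 10.4 and 9.73 CPM at 1 day and 10.9 and 11.0 CPM at 3 days. Every treated library lay below both controls, with log2 fold changes of −0.48, −0.61 and −0.49 along the forskolin course and −0.21 with rosiglitazone. The forskolin values were called, but the call ended without S1, S2 or S4 at 4 hours, without S6 at 1 day and without S1, S2, S5, S6, S7 or S8 at 3 days. The +815.9-kb peak of Zfp36l1, the strongest member, had 34.0 and 34.6 CPM with rosiglitazone, 48.9 and 41.2 CPM in control, 32.3 and 34.0 CPM at 4 hours, 27.7 and 31.1 CPM at 1 day and 32.6 and 46.4 CPM at 3 days. It was called lower at 4 hours (−0.44, a call that ended without S1 or S3) and at 1 day (−0.61), and at 3 days 1 of the forskolin libraries was back among the controls.

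Several of the strongest members were not called at any forskolin time. The +567.6-kb peak had 32.1 and 29.9 CPM with rosiglitazone, 36.5 and 34.3 CPM in control, 32.3 and 31.2 CPM at 4 hours, 32.4 and 33.4 CPM at 1 day and 32.3 and 33.3 CPM at 3 days, with log2 fold changes over control between −0.19 and −0.11. The +303.2-kb peak (79600161 to 79600740) ranged from 18.4 to 23.7 CPM over the 10 libraries, with both controls at the top. It lies beside the +301.6-kb peak, which was called lower at 4 hours and 1 day at 8.09 and 7.97 CPM and 8.44 and 10.3 CPM, against 14.6 and 14.7 CPM in control. The +429.1-kb peak (79726094 to 79726691) had 13.4 and 13.5 CPM with rosiglitazone, 15.6 and 17.0 CPM in control, 16.8 and 19.3 CPM at 4 hours, 12.5 and 13.8 CPM at 1 day and 13.3 and 11.5 CPM at 3 days. It was called lower at 1 day and at 3 days than at 4 hours, where both libraries were high. The 1-day call ended without S3, S4, S5 or S6 and with DESeq2, and the 3-day call without S4 or S8.

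Rosiglitazone for 3 days changed few members. Against control 0 were called higher and 3 lower by edgeR, beside 3.22% and 3.35% of all peaks, so the share of the 85 members called lower, 3.53%, was near that of the table. A further 12 members had an unadjusted p below 0.05 without passing, and DESeq2 called 2 lower and 0 higher. This comparison shares the control libraries with those that chose the locus. The lower calls numbered 1 without S1, S2 or S9, and 2 members were called higher without S7, without S8, with library size alone or with only the compared groups in the fit.

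The 3 members called lower with rosiglitazone are given with their forskolin values, which rest on the same control libraries. The +49.0-kb peak (79346034 to 79346574) had 6.95 and 4.51 CPM with rosiglitazone, 11.9 and 10.2 CPM in control, 6.38 and 5.55 CPM at 4 hours, 5.53 and 6.72 CPM at 1 day and 6.61 and 4.43 CPM at 3 days. Every treated library lay below both controls. The log2 fold change with rosiglitazone was −0.95 (SE 0.22, adjusted p = 0.00261), lower in 2 of 2 libraries, with edgeR's adjusted p between 0.000969 and 0.155 over the alternatives and no call without S1 (0.0596) or S10 (0.155). The +462.2-kb peak (79759238 to 79759820) had 4.61 and 4.75 CPM with rosiglitazone, 8.18 and 9.17 CPM in control, 7.76 and 6.58 CPM at 4 hours, 5.81 and 6.06 CPM at 1 day and 6.78 and 6.41 CPM at 3 days. Here rosiglitazone gave the lowest levels of all groups. Its log2 fold change was −0.89 (SE 0.22, edgeR adjusted p = 0.00530; 0.00350 to 0.0842 over the alternatives), with no call without S2 (0.0842) or S9 (0.0609).

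For the +217.6-kb peak (79514731 to 79515072) the levels were 3.03 and 5.80 CPM with rosiglitazone, 7.27 and 8.42 CPM in control, 2.37 and 2.29 CPM at 4 hours, 4.86 and 2.29 CPM at 1 day and 4.36 and 4.35 CPM at 3 days. All 8 treated libraries lay below both controls. With rosiglitazone the log2 fold change was −0.82 (SE 0.27, edgeR adjusted p = 0.0471; 0.0123 to 0.534 over the alternatives), and the call ended without S1 (0.0925), S2 (0.269) or S9 (0.534), with library size alone (0.0949) and with DESeq2 (0.183).

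The drugs were then compared directly at 3 days, where no control library enters but the forskolin libraries are those of a comparison that chose the locus. Forskolin was above rosiglitazone at 8 members and below it at 12, beside 12.9% and 8.82% of all peaks. Over all peaks DESeq2 called 10560 higher and 6296 lower, where edgeR called 15374 and 10496. The lower members numbered 7 without S7, 5 without S9 and 6 with DESeq2, and the higher members 5 without S7 or S9, 3 without S10 and 4 with DESeq2.

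At +235.0 kb the 3-day libraries had 8.14 and 7.52 CPM with forskolin and 22.6 and 21.7 CPM with rosiglitazone, a log2 fold change of −1.50 (SE 0.16, edgeR adjusted p = 1.85e-11, between 7.2e-13 and 1.93e-08 over all alternatives). At +378.7 kb they had 5.13 and 4.35 CPM with forskolin and 13.1 and 12.9 CPM with rosiglitazone (−1.45, SE 0.20, edgeR adjusted p = 2.52e-08, between 2.96e-09 and 8.05e-06). At +458.6 kb they had 0.885 and 0.633 CPM with forskolin and 3.72 and 4.01 CPM with rosiglitazone (−2.31, SE 0.43, edgeR adjusted p = 2.37e-05, between 7.38e-06 and 0.00157). These 3 calls held in every alternative, and at each of these peaks both forskolin libraries lay below both rosiglitazone libraries.

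In the other direction, the +577.3-kb peak had 5.31 and 4.19 CPM with forskolin and 1.45 and 1.30 CPM with rosiglitazone (1.80, SE 0.32, edgeR adjusted p = 9.45e-06, between 6.47e-06 and 0.00176, called in every alternative). The +36.8-kb peak had 28 and 22 counts with forskolin and 4 and 0 counts with rosiglitazone (3.61, SE 0.75, edgeR adjusted p = 0.000177), and DESeq2 did not call it (0.113; over the alternatives 3.41e-05 to 0.113). The +354.9-kb peak was higher with forskolin by 1.51 (SE 0.43, edgeR adjusted p = 0.00625, 0.000817 to 0.270 over the alternatives), without a call when S10 was left out (0.270). Both forskolin libraries lay above both rosiglitazone libraries at these 3 peaks.

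Further differences between the drugs rested on fewer reads or on 1 library. The +364.2-kb peak (79661335 to 79661582) had 1 and 4 counts with forskolin and 27 and 19 counts with rosiglitazone (−3.07, SE 0.83, edgeR adjusted p = 0.00392), and the call ended without S7 (0.117) or S9 (0.0682), the range being 0.00122 to 0.117. The +282.0-kb peak (79579064 to 79579517) had 14 and 0 counts with forskolin and 19 and 40 counts with rosiglitazone (−2.04, SE 0.57, edgeR adjusted p = 0.00574), with no call without S8 (0.152) or S10 (0.159) or with DESeq2 (0.148; lowest 8.94e-05). The +767.9-kb peak had 2.42 and 0.475 CPM with forskolin and 0.138 and 0.494 CPM with rosiglitazone, groups that overlap. Its log2 fold change of 2.19 (SE 0.62, edgeR adjusted p = 0.00559) became 0.54 without S7 (0.751) and was not called without S9 (0.117), the lowest adjusted p over its alternatives being 0.000261.

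The +342.5-kb peak (79639626 to 79639975) had 2.18 and 1.82 CPM with forskolin and 0.826 and 0.556 CPM with rosiglitazone (edgeR adjusted p = 0.0270, 0.0178 to 0.196 over the alternatives), and its call ended without S7, S9 or S10.

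At +55.3 kb (79352216 to 79353036), among the strongest members and never called against control, the 3-day libraries had 11.4 and 13.4 CPM with forskolin and 16.8 and 18.1 CPM with rosiglitazone. Control had 15.1 and 13.0 CPM, below both rosiglitazone libraries and overlapping forskolin. The difference between the drugs was −0.50 (SE 0.15, edgeR adjusted p = 0.0114, 0.00798 to 0.156 over the alternatives), and the call ended without S7 (0.156), without S10 (0.115) and with DESeq2 (0.0616).

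**Figure D3:**
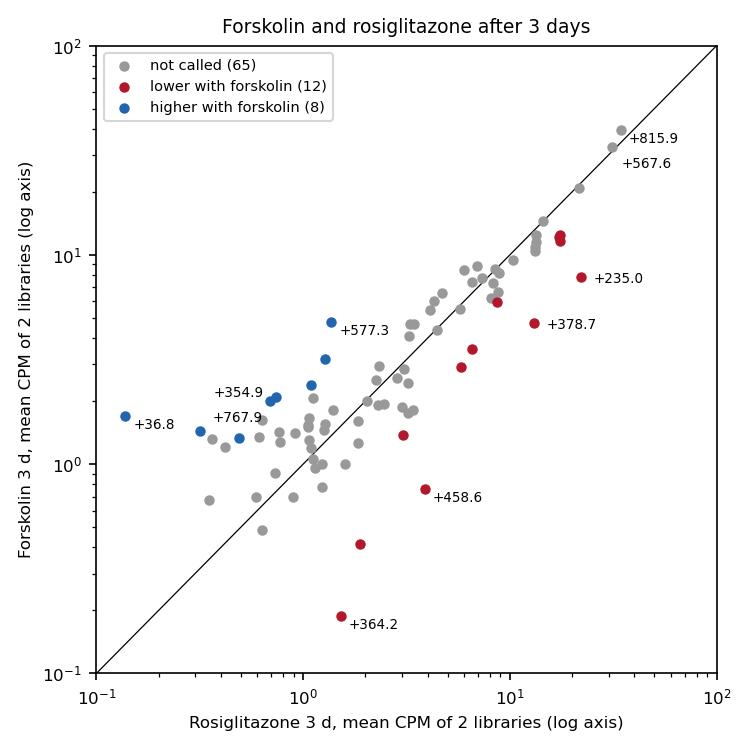
The mean CPM of the 2 libraries after 3 days is plotted for each of the 85 tested members, forskolin on the vertical log axis and rosiglitazone on the horizontal log axis, with the line of equality. The 12 members called lower with forskolin (red) lie below the line and the 8 called higher (blue) lie above it.

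Summed over all its peaks, accessibility assigned to Rad51b was 404 and 393 CPM with rosiglitazone and, along the forskolin course, 431 and 416 CPM in control, 354 and 352 CPM at 4 hours, 344 and 352 CPM at 1 day and 366 and 342 CPM at 3 days. Every treated library lay below both controls, and every forskolin library lay below both rosiglitazone libraries. The log2 fold changes over control were −0.26 (SE 0.05), −0.28 (SE 0.05) and −0.26 (SE 0.05) at the 3 forskolin times, while the median over all 17080 genes was −0.12, −0.13 and −0.10. With library size alone these became −0.16, −0.13 and −0.16, of which only the first was called, and the gene medians became −0.02, 0.02 and 0.003.

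With rosiglitazone the Rad51b sum differed from control by −0.09 (SE 0.05, edgeR adjusted p = 0.286), and by 0.01 with library size alone. Between the drugs at 3 days the sum was 366 and 342 CPM with forskolin and 404 and 393 CPM with rosiglitazone, a log2 fold change of −0.17 (SE 0.05, edgeR adjusted p = 0.0197, 0.00500 to 0.162 over the alternatives). Gene sums called lower made up 8.4% of all genes in this comparison, and those called higher also 8.4%. The call on Rad51b ended without S8 (0.111), S9 (0.162) or S10 (0.0731), with only the compared groups in the fit (0.0858) and with DESeq2 (0.0636). The sum did not rest on the promoter, since without gene-end peaks its log2 fold changes along the forskolin course were −0.26, −0.27 and −0.25. The gene medians became 0.049, 0.055 and 0.026 in that setting. The 5 strongest peaks held 25.6% of the Rad51b sum and the 10 strongest 42.4%.

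The Zfp36l1 sum was 55.7 and 50.8 CPM with rosiglitazone and, along the forskolin course, 72.3 and 59.6 CPM in control, 54.2 and 55.6 CPM at 4 hours, 49.96 and 52.9 CPM at 1 day and 59.0 and 66.9 CPM at 3 days. Both libraries at 4 hours, at 1 day and with rosiglitazone lay below both controls, which were themselves far apart, and the 3-day libraries overlapped control. The gene-start peak held 62.9% of the sum. Without gene-end peaks its log2 fold changes of −0.26 at 4 hours and −0.36 at 1 day turned to 0.07 and 0.08. The median over all genes turned likewise, from −0.12 and −0.13 to 0.049 and 0.055. The call on the Zfp36l1 sum at 4 hours ended without S1, S3, S4, S5, S6, S9 or S10 (−0.12 without S1) and that at 1 day without S1 (−0.21) or S5 (−0.32). With rosiglitazone the log2 fold change was −0.31 (SE 0.10, edgeR adjusted p = 0.0686, 0.0142 to 0.582 over the alternatives), which passed without S7 (0.0143) or S8 (0.0142) and with only the compared groups in the fit (0.0185). Between the drugs at 3 days it was 0.24 (SE 0.10, edgeR adjusted p = 0.106, 0.0271 to 0.451 over the alternatives), which passed without S7 (0.0271) and with trended offsets (0.0271).

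**Figure D4:**
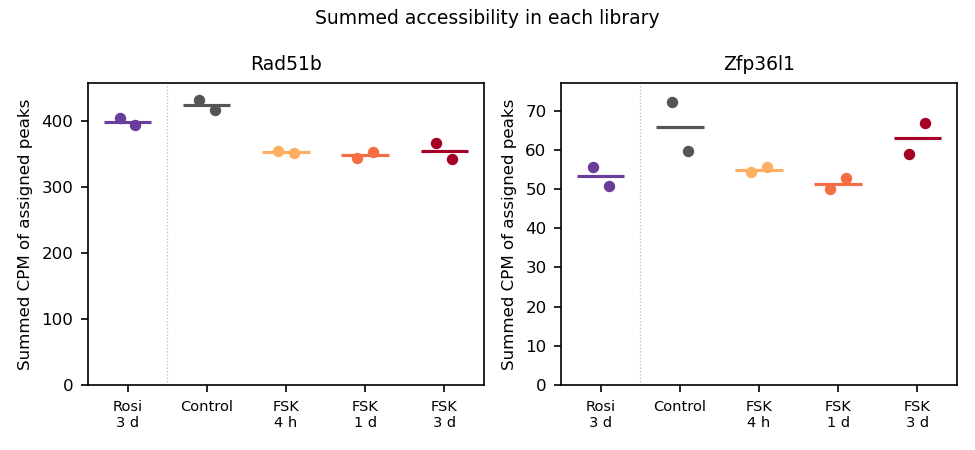
The summed CPM of all peaks assigned to Rad51b (left) and Zfp36l1 (right) is plotted for each library (points, vertical axis from 0) with the mean of 2 libraries (bars), from rosiglitazone through control to 3 days of forskolin. The 6 forskolin libraries of Rad51b sit between 342 and 366 CPM, below rosiglitazone at 393 and 404 CPM and control at 416 and 431 CPM.

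The remaining Zfp36l1 members varied without a call. In the gene body the +811.8-kb peak (80109034 to 80109231) had 4.47 and 3.70 CPM with rosiglitazone, 5.96 and 5.20 CPM in control, 4.21 and 4.77 CPM at 4 hours, 3.63 and 4.28 CPM at 1 day and 4.72 and 6.17 CPM at 3 days. As at the gene start, both controls stood above the rosiglitazone, 4-hour and 1-day libraries. The +801.7-kb peak (80098740 to 80099289) had 7.09 and 4.88 CPM with rosiglitazone, 9.29 and 6.44 CPM in control, 9.34 and 8.75 CPM at 4 hours, 8.77 and 9.32 CPM at 1 day and 10.2 and 6.80 CPM at 3 days. Both rosiglitazone libraries lay below both 4-hour and both 1-day libraries, and control overlapped every group. Neither peak falls under the naming rule, and both were picked once their values were known.

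Rad51b was set beside other genes by the number and by the share of its peaks called lower. Among 827 protein-coding genes with 20 or more tested peaks, it ranked 4 by number of peaks (77). Lower calls at 4 hours numbered 21, the most of any gene, ahead of 18 in the next, and at 1 day 17, ahead of 14, while at 3 days its 12 came second to 15. By the share of tested peaks called lower it ranked 55 at 4 hours (27.3%, the median gene having 10.7%), 26 at 1 day (22.1%, median 7.27%) and 45 at 3 days (15.6%, median 4.55%). With rosiglitazone it ranked 328 by share (3.90%, median 2.63%), and in forskolin against rosiglitazone at 3 days 147 (15.6%, median 8.70%). The ranks against control restate the choice of the locus.

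**Figure D5:**
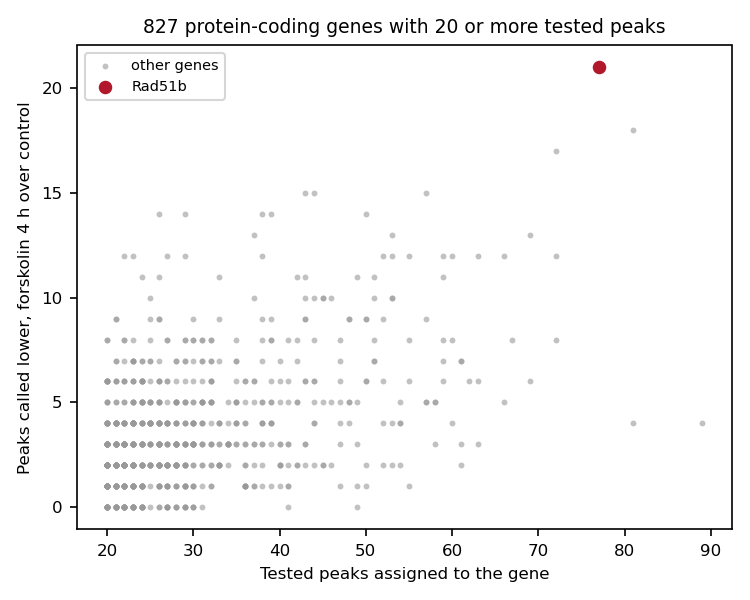
Each point is 1 of 827 protein-coding genes with 20 or more tested peaks, with the number of tested peaks on the horizontal axis and the number called lower after 4 hours of forskolin on the vertical axis. Rad51b, with 77 tested and 21 lower peaks, is the highest point, ahead of the next gene at 18.

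Likeness to Rad51b was taken among 2912 genes with 10 or more tested peaks and counts in every library, leaving out Gm, Rik and Olfr gene models. The genes whose summed log2 CPM over the 10 libraries was most like that of Rad51b were Ccn1 (Pearson's r 0.942), Pced1b (0.942), Tmem232 (0.936), Klf3 (0.936) and Zfp90 (0.931). Their log2 fold changes at 4 hours were −0.36, −0.33, −0.70, −0.49 and −0.36, and with rosiglitazone −0.03, −0.18, −0.17, −0.28 and −0.17. Zfp36l1 had an r of 0.394 with Rad51b. These are descriptions over libraries that share groups and scaling.

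Of 25 other genes of homologous recombination, 24 were tested by their sums. At 4 hours 2 were higher and 3 lower than control, beside 12.1% and 23.2% of all genes, at 1 day 0 and 8, beside 9.34% and 28.5%, and at 3 days 1 and 2, beside 5.23% and 10.4%. The list's median log2 fold change was −0.08, −0.15 and −0.09. The genes of the proteins that work with the Rad51b protein, Rad51c, Rad51d and Xrcc2, were not called in any comparison against control. Xrcc3, which encodes a partner of the RAD51C protein, was called lower at all 3 times, with 172 and 171 CPM with rosiglitazone and, along the course, 164 and 169 CPM in control, 139 and 142 CPM at 4 hours, 136 and 136 CPM at 1 day and 137 and 148 CPM at 3 days. Its forskolin libraries lay below all others, and at 3 days the difference from rosiglitazone was −0.27 (edgeR adjusted p = 0.00489, lower in 2 of 2 libraries). Mre11a, which encodes a nuclease that trims broken DNA ends, was also lower with forskolin than with rosiglitazone at 3 days (−0.37, edgeR adjusted p = 0.00752), at 39.8 and 44.0 CPM with forskolin and 53.7 and 54.1 CPM with rosiglitazone. In that comparison 1 of the 24 genes was called higher and 2 lower, beside 8.4% of all genes in each direction.

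Brca1, a tumour suppressor that promotes recombination, went the other way. It had 8.88 and 8.46 CPM with rosiglitazone, 12.3 and 9.91 CPM in control, 20.8 and 19.3 CPM at 4 hours, 12.0 and 14.5 CPM at 1 day and 16.1 and 14.6 CPM at 3 days. It was called higher than control at 4 hours (0.86) and 3 days (0.48), and higher than rosiglitazone at 3 days (0.83, edgeR adjusted p = 0.000746). Sfr1, which encodes a recombination accessory factor, was the 1 gene of the list called lower with rosiglitazone (−0.30, edgeR adjusted p = 0.0258), at 118 and 132 CPM against 152 and 156 CPM in control, where 5.15% of all genes were called lower. It was also called lower at the 3 forskolin times.

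Of 26 genes of the Zfp36 family and of mRNA decay, 25 were tested. At 4 hours 1 was higher and 10 lower than control, beside 12.1% and 23.2% of all genes, at 1 day 0 and 12, beside 9.34% and 28.5%, and at 3 days 0 and 5, beside 5.23% and 10.4%, with medians of −0.20, −0.25 and −0.14 against −0.12, −0.13 and −0.10 over all genes. With rosiglitazone 0 were higher and 2 lower, beside 2.37% and 5.15% of all genes. These were the family members Zfp36 and Zfp36l2, which encode proteins with the same zinc finger domain. Zfp36l2 had 156 and 176 CPM with rosiglitazone, 194 and 204 CPM in control, 140 and 139 CPM at 4 hours, 138 and 146 CPM at 1 day and 141 and 161 CPM at 3 days. Control stood above every treated group, and the log2 fold change with rosiglitazone was −0.26 (edgeR adjusted p = 0.0343). Zfp36 had 93.3 and 96.7 CPM with rosiglitazone, 113 and 129 CPM in control, 91.9 and 96.5 CPM at 4 hours, 87.5 and 91.9 CPM at 1 day and 96.4 and 113 CPM at 3 days, and was lower with rosiglitazone by −0.35 on the log2 scale (edgeR adjusted p = 0.0152). Among the decay factors, Cnot1, the scaffold of the CCR4-NOT complex, and Cnot3, Cnot4 and Khsrp were called lower at all 3 forskolin times. Cnot1 and Edc3, an mRNA decapping factor, were lower with forskolin than with rosiglitazone at 3 days (−0.27, edgeR adjusted p = 0.0207, and −0.44, edgeR adjusted p = 0.0213), so 0 of 25 genes were higher and 2 lower, beside 8.4% of all genes in each direction.

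The 5 nearest protein-coding genes on either side did not share one pattern. At 4 hours Arg2, which encodes a mitochondrial arginase, and Rdh12, a retinol dehydrogenase gene, were higher than control (0.73 and 0.97), and Gm52006 and Exd2 lower (−0.27 and −0.36), beside 12.1% higher and 23.2% lower of all genes. Gm52006 begins beside Zfp36l1. At 1 day 0 were higher and 4 lower, Vti1b, Zfyve26, Gm52006 and Exd2, beside 9.34% and 28.5% of all genes. At 3 days 0 were higher and Exd2 was lower (−0.42), 1 of 10 genes where 10.4% of all genes were called lower. Rdh12 was also higher with rosiglitazone (0.89, edgeR adjusted p = 0.0319), from a single peak at 5.78 and 5.68 CPM against 2.93 and 3.22 CPM in control, the 1 neighbour called where 2.37% of all genes were higher and 5.15% lower. Between the drugs at 3 days Arg2 was higher with forskolin (0.76, edgeR adjusted p = 0.00169), at 13.2 and 14.5 CPM against 8.60 and 7.72 CPM with rosiglitazone, and Galnt16 lower (−0.68, edgeR adjusted p = 0.00533), at 15.7 and 11.2 CPM against 24.0 and 19.9 CPM with rosiglitazone, beside 8.4% of all genes in each direction.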

How the data were processed

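ATAC-seq libraries were made from sorted nuclei of differentiated MAP cells (10000 nuclei and 12 PCR cycles, paired-end), per the labels' protocols. The deposited table holds whole-number read counts per peak for 10 libraries, with peak coordinates on mm10. Per the submitters' processing notes, the authors used Bowtie2, SAMtools and Picard, fastp, deepTools, MACS2 and featureCounts, whose roles and versions are not listed. If MACS2 ran on single or pooled libraries, and how strictly, is not stated, and both set which weak peaks could be seen.

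Peaks were assigned to RefSeq GRCm38 genes by midpoint. Counts were fitted in edgeR 4.0.16 (R 4.3.3, limma 3.58.1) with its filter on low counts, TMM scaling and a robust quasi-likelihood F test, in 1 model of the 5 groups over all 10 libraries. P-values were adjusted by the Benjamini-Hochberg method over 118954 peaks or 17080 gene sums, and a call is an adjusted p below 0.05. CPM are counts scaled to a common library size after TMM, and the SE is the size of the log2 fold change divided by the square root of F. TMM scaling assumes that most peaks do not change. Total counts per library (10410233 to 18935287) limit what weak peaks can show. On counts simulated for forskolin 4 hours against control, 24% of 100 peaks changed by a log2 of 1 and 92% of those changed by 2 were recovered, with 12 false calls among 117208 peaks. The changed peaks were drawn from those with higher counts, and all peaks were given a common spread. Far fewer peaks changed than were called in the data, which makes the adjusted threshold stricter. These shares are therefore not the power for the members here.

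The members, gene lists and tests were chosen with earlier results of these data known. The rule for named peaks took those within 1 kb of an end of either gene, the 5 members with the highest mean CPM, the 4 called members with the most negative and the 2 with the most positive log2 fold change in each treatment against control, and up to 4 called members a direction in forskolin against rosiglitazone. Peaks outside it are said to be chosen after their values were seen. The +43.8, +57.5, +262.3, +301.6, +438.5, +459.3, +801.7 and +811.8-kb peaks are of that kind. Alternatives were DESeq2 1.42.0, library size alone, RLE size factors, trended offsets, no filter, fits of only the compared groups, an adjusted p below 0.01, other sums, and each library left out in turn.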

Additional observations from a re-analysis of the deposited data

How the results depend on the processing

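No paired analysis was possible because the library columns carry S numbers that are not tied to the labelled replicate numbers. With a threshold of 0.01, the members called lower and higher numbered 13 and 6 at 4 hours, 4 and 1 at 3 days, 11 lower at 1 day, 5 higher in forskolin against rosiglitazone, 1 between 1 day and 4 hours and 4 between 3 days and 4 hours. DESeq2 gave 14 lower and 6 higher at 4 hours, 3 higher at 1 day, and 4 lower and 1 higher at 3 days. It gave 6 lower and 4 higher between the drugs, 1 between 1 day and 4 hours and 4 between 3 days and 4 hours. In each of these comparisons DESeq2 also called fewer peaks than edgeR over the whole table. Higher calls at 3 days numbered 2 with trended offsets or only the compared groups, and higher calls with rosiglitazone 1 with trended offsets and 2 with only the compared groups or library size alone. Between 1 day and 4 hours 5 were called with only the compared groups.

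Leaving out each library in turn, lower and higher calls ran over 14 to 24 and 7 to 11 at 4 hours, 10 to 20 and 2 to 6 at 1 day, 5 to 12 and 1 to 6 at 3 days, 1 to 4 and 0 to 2 with rosiglitazone, and 5 to 12 and 3 to 10 between the drugs. Calls between times ran over 0 to 3 (1 day and 4 hours), 3 to 11 (3 days and 4 hours) and 0 to 2 (3 days and 1 day).

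The Zfp36l1 sum (log2 fold change) was not called at 4 hours with library size alone (−0.16), RLE (−0.27), trended offsets (−0.13), DESeq2 (−0.27) or only peaks inside the gene (−0.31), and turned to 0.067 without gene-end peaks. At 1 day it was −0.20, −0.17 and −0.49 with library size alone, trended offsets and only peaks inside the gene, not called, and 0.082 without gene-end peaks. At 3 days it turned to 0.030, 0.050 and 0.18 with library size alone, trended offsets and no gene-end peaks. Without gene-end peaks the median over all genes also turned, to 0.049, 0.055 and 0.026 at the 3 forskolin times. With rosiglitazone the Zfp36l1 sum was called with only the compared groups (−0.30), and between the drugs with trended offsets (0.28). The Rad51b sum was not called with library size alone at 1 day (−0.13) and 3 days (−0.16), and turned to 0.013 with rosiglitazone. Between the drugs it was not called with only the compared groups (−0.17) or DESeq2 (−0.17). Differences between times near 0 changed sign: Rad51b at 1 day against 4 hours was 0.035 on library sizes and 0.025 with trended offsets, at 3 days against 4 hours −0.0026 with RLE and −0.0024 with DESeq2, and at 3 days against 1 day −0.028 with library size alone. Zfp36l1 at 1 day against 4 hours was 0.015 without gene-end peaks. The cause of these changes was not tested.

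With each library left out in turn, the Zfp36l1 sum ran over −0.40 to −0.12 at 4 hours, −0.49 to −0.21 at 1 day, −0.20 to 0.075 at 3 days, −0.44 to −0.16 with rosiglitazone, 0.15 to 0.33 between the drugs and 0.20 to 0.38 at 3 days against 1 day. The Rad51b sum ran over −0.22 to −0.12 between the drugs, −0.047 to 0.055 at 3 days against 4 hours and −0.028 to 0.074 at 3 days against 1 day. Among all peaks the share of calls that were higher moved with library size alone to 68.9% from 58.8% at 4 hours, 75.9% from 56.8% at 1 day, 75.6% from 61.4% at 3 days and 68.6% from 49.1% with rosiglitazone.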
